A study of Mus musculus with 5 samples.

Results

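Imprinted genes are expressed from only 1 of the parental alleles, and 36 of them were followed here through H3K27me3 peak lists of mouse embryonic fibroblasts (MEFs). The 36 genes were taken by name, all 36 were found in the mouse gene annotation, and they fell into 15 imprinted clusters, where a gene with no listed neighbour counted as a cluster of its own. They were 33 protein-coding genes, the long noncoding RNAs Airn and Meg3, and H19, which the annotation types as a processed transcript. For comparison, 25087 autosomal genes of the same 3 types served as background, and the members are among them.

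The MEFs came from an E13.5 mouse embryo whose Eed gene carried loxP sites, and all lines used here shared that floxed Eed background. EED is a core subunit of Polycomb Repressive Complex 2 (PRC2). Lentiviruses gave stable expression, from the EF1a promoter by the study's methods, of H3.3 K27R, of H3.3 K27M or of human EZHIP. Crosslinked chromatin was digested with MNase and immunoprecipitated with an H3K27me3 antibody, and the precipitated DNA was sequenced (ChIP-Seq). Each of the 3 lines gave 1 library and 1 list, with no replicates, so no difference between lists carried a test. The untransduced parental cells and the line with Eed deleted, which is a single clone, were not analysed here.

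PRC2 trimethylates lysine 27 of histone H3 (H3K27me3), a mark of silenced developmental genes and of unmethylated CpG islands at inactive promoters. The oncohistone H3 K27M and the tumour protein EZHIP both inhibit PRC2, while H3.3 K27R lacks the inhibitory methionine and served as the histone control. At imprinted clusters, DNA methylation set in the germline marks 1 parental copy, and in several clusters H3K27me3 lies on the silent allele, spread in some of them by a long noncoding RNA. The peak lists do not separate the parental alleles, so an interval can stand for either copy or for both.

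The K27R list held 12845 intervals over 582 Mb with a median width of 16.0 kb. The K27M list held 3736 intervals over 51.0 Mb (median 6.80 kb) and the EZHIP list 4992 over 36.5 Mb (median 4.40 kb). The lists hold positions only, with no height, read count or p-value, so the depth behind an interval is unknown and a gene outside the intervals is one where no enrichment was called, not one shown to lack the mark. A start site here is the 5′ end of the annotated gene.

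The promoters of 4 imprinted genes are shown, the first in cluster order whose start sites lay in an inhibitor list, because they include both patterns found there. Slc22a3 and Dio3 had a start site in all 3 lists, and Peg3 and Magel2 had one in the K27R and K27M lists but not in the EZHIP list. Each sequence is the 250 bases just before the start site, 5′ to 3′ in the direction of the gene, read from the mm9 genome (NCBIM37), with CpG dinucleotides in capitals. The stretches are chr17:12700571-12700820 (minus strand) for Slc22a3, chr7:6683133-6683382 (minus) for Peg3, chr7:69521615-69521864 (plus) for Magel2 and chr12:111517028-111517277 (plus) for Dio3.
Slc22a3: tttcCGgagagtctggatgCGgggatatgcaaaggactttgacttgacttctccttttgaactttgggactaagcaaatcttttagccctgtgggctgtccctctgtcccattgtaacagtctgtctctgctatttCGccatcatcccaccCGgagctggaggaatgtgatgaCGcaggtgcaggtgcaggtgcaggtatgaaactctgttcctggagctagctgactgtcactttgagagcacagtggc
Peg3: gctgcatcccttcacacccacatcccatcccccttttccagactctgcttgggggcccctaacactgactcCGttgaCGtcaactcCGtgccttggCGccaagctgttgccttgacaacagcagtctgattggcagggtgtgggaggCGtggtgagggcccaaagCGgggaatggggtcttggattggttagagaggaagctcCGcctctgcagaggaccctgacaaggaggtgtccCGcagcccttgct
Magel2: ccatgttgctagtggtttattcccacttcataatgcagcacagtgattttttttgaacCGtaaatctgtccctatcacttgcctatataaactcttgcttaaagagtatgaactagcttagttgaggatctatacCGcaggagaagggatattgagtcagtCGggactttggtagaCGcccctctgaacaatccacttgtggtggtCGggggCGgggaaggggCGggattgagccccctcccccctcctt
Dio3: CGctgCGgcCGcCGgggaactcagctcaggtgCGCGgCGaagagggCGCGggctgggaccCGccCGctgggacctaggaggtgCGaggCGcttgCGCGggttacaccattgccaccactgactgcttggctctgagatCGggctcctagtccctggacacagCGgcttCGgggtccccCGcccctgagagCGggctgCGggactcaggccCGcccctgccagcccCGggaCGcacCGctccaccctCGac
Dio3 stood apart with 26 CpGs and 73.2% G+C in its 250 bases. The Slc22a3 stretch had 5 CpGs and 51.2% G+C, that of Magel2 7 and 48.8%, and that of Peg3 8 and 60.4%.

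The lists had a blank stretch that holds 11 of the 36 genes. On chromosome 7 of 152524553 bases, the last K27R interval ended at 144794000, the last K27M interval at 144522200 and the last EZHIP interval at 144517400. The stretch without an interval was 7.73, 8.0 and 8.01 Mb long, whereas the longest such end on any other chromosome was 1.66 Mb for K27R and 2.91 Mb for K27M and for EZHIP. Beyond the last K27R interval lay 167 protein-coding start sites and 124 CpG islands. Islands were counted only in the long stretches between K27R intervals, and among these the one next in number of islands held 51.

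Both clusters of distal chromosome 7 lie in that blank stretch. They are the Igf2-H19 pair, a fetal growth factor and a noncoding RNA, and the 9 listed genes of the Kcnq1ot1 domain: Cdkn1c, an inhibitor of cyclin-dependent kinases, Phlda2, Slc22a18, Ascl2, Tssc4, Cd81, Tspan32, Osbpl5 and Nap1l4. Their start sites were 4970 to 6149 kb from the nearest K27R interval. A lack of H3K27me3 there and a lack of calls or of rows for that end of the chromosome cannot be told apart. These 11 genes were counted as outside every list, and the main counts over all 36 genes are also given over the other 25.

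**Figure D1:**
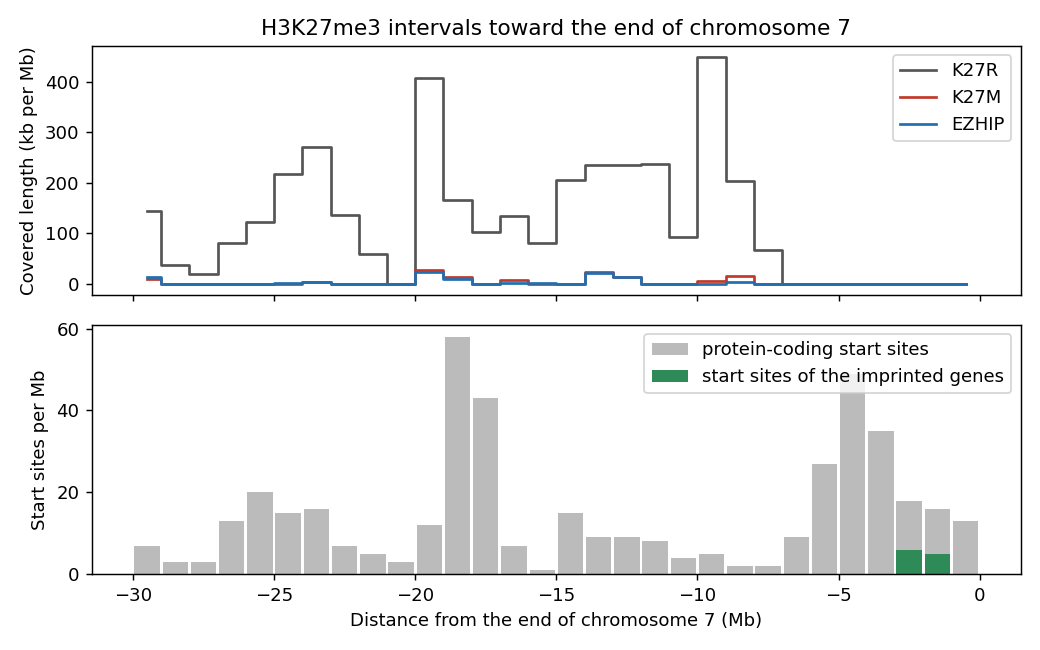
The top panel plots the length covered by each list in kb per Mb, and the bottom panel the number of start sites per Mb, against the distance from the end of chromosome 7 in Mb. Each list is 1 library. All 3 lists run to 0 in the last 7.73 Mb or more, where protein-coding start sites continue and 11 of the 36 imprinted genes (green) lie.

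In K27R cells, 11 of the 36 imprinted genes had a start site in an H3K27me3 region, or 30.6%, close to the 28.5% of the background. They were Slc22a2, Slc22a3, Peg3, Ndn, Magel2, Dlk1, Meg3, Dio3, Grb10, Gnas and Rasgrf1. Of the 15 clusters, 7 held at least 1 of them. With the blank end of chromosome 7 left out, the count was 11 of 25 (44.0%), against 28.7% of the background.

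In K27M cells, 7 of the 36 start sites lay in a peak (19.4%, background 8.95%): those of Slc22a3, Peg3, Magel2, Dio3, Grb10, Gnas and Rasgrf1. In EZHIP cells, 4 did (11.1%, background 7.87%): those of Slc22a3, Dio3, Gnas and Rasgrf1. Over the 25 genes outside the blank stretch these were 28.0% (background 9.02%) and 16.0% (background 7.93%). With intervals of at least 5000 bp only, the EZHIP count was 2 of 36 (5.56%, background 6.16%), since the Gnas and Rasgrf1 peaks are narrower. The K27R count was 10 (27.8%), beside 28.0%. These shares keep the 11 genes of the blank stretch among the 36, and they were not computed over the other 25 at this width. All genes counted were among those 25. All 4 EZHIP genes were also K27M genes, and all 7 K27M genes were K27R genes. Such nesting was general: in the background, 2240 of 2246 K27M start sites and 1971 of 1975 EZHIP start sites lay in K27R regions. Of those 1971, 1708 were also in K27M peaks.

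Of the 11 genes in K27R regions, 7 were in K27M peaks (63.6%, against 31.3% of background genes in K27R regions) and 4 in EZHIP peaks (36.4%, against 27.6%). With intervals of at least 5000 bp only, the EZHIP share was 2 of 10 (20%), below the 22.0% of the background. The 4 in both lists stood beside 23.9% in the background. Peg3, Magel2 and Grb10 were in K27M peaks only, 27.3% of the 11 against 7.44%, and none was in EZHIP peaks only, against 3.68%. Slc22a2, Ndn, Dlk1 and Meg3 were in neither inhibitor list, 36.4% against 65.0%. These are shares of 11 genes in 7 clusters, and neighbours share intervals. Each of the 7 clusters had a start site in a K27M peak, and 4 had one in an EZHIP peak.

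**Figure D2:**
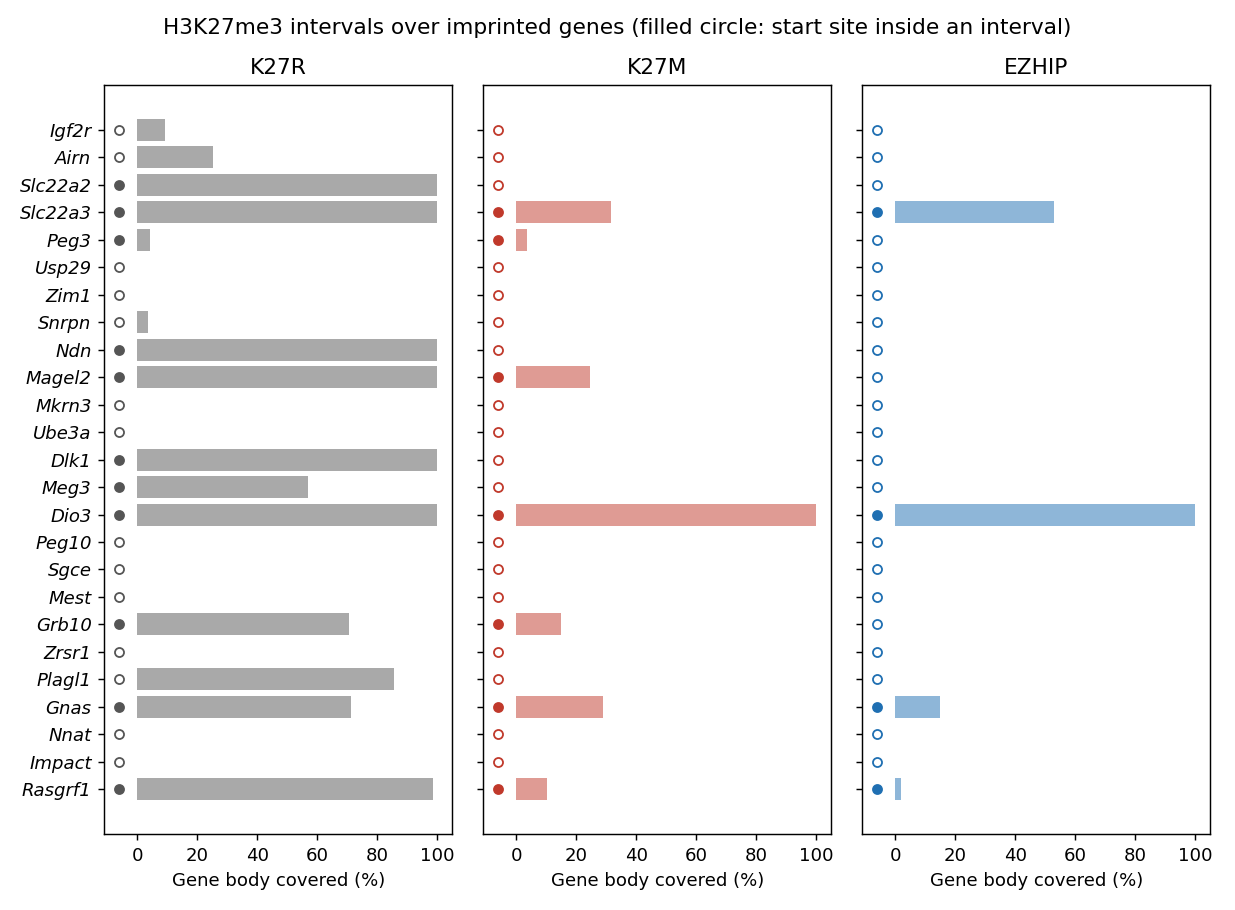
Bars plot the percent of each gene body covered by intervals in the K27R, K27M and EZHIP lists (1 library each) for the 25 imprinted genes outside the blank end of chromosome 7. A filled circle marks a start site inside an interval. The filled circles number 11 for K27R, 7 for K27M and 4 for EZHIP, and Dio3 was the gene covered to 100% in all 3 lists.

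The regions at imprinted start sites were wide in K27R cells. The 11 start sites lay in 8 distinct K27R regions of 4.60 to 317 kb, with a median of 107 kb, where the regions at background start sites had a median of 50.8 kb. The 7 K27M peaks at imprinted start sites were 3.20 to 42.2 kb wide (median 21.0 kb, background 10.0 kb) and the 4 EZHIP peaks 4.20 to 40.8 kb (median 9.30 kb, background 8.0 kb).

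Within the 8 K27R regions, K27M peaks were present in every one, against 48.6% of K27R regions at background start sites. EZHIP peaks were present in 4, where the background had 49.0%. With intervals of at least 5000 bp only, the Peg3 region dropped out of the K27R list. Of the 7 regions left, 6 held a K27M peak and 2 an EZHIP peak, and the background was not computed. Wide regions hold inhibitor peaks more often. Among regions of at least 50 kb, K27M peaks were in 7 of 7 at imprinted start sites against 64.5% in the background, and EZHIP peaks in 4 of 7 against 69.5%. The 4 regions with no EZHIP peak at any position were those of Peg3, of Ndn and Magel2, of Dlk1 and Meg3, and of Grb10.

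**Figure D3:**
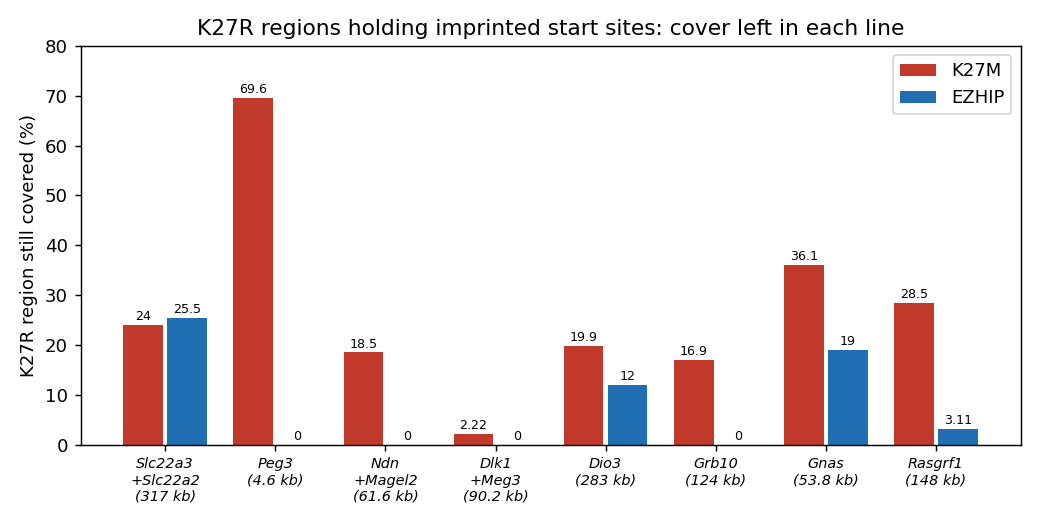
Bars plot the percent of each of the 8 K27R regions with an imprinted start site that K27M peaks (red) and EZHIP peaks (blue) covered, with the genes and the region's width below, 1 library per list. K27M covered from 2.22% (Dlk1 and Meg3) to 69.6% (Peg3), and EZHIP from 0% in 4 regions to 25.5% (Slc22a3 and Slc22a2).

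The Igf2r-Airn cluster had the widest region. Igf2r, the receptor that clears IGF2, is silenced on the paternal copy by the noncoding RNA Airn, whose transcription starts within Igf2r, and the organic cation transporter genes Slc22a2 and Slc22a3 are imprinted with it in placenta. A K27R region of 317 kb (chr17:12565801-12883200) held all of Slc22a2 and Slc22a3 and ran into the 3′ end of Igf2r, where it covered 9.09% of the gene. A second K27R region of 49.8 kb lay over the 3′ part of Airn, 25.4% of its length. Between the regions, a stretch of 140 kb with no interval in any of the 3 lists held the start sites of both Igf2r and Airn. These lay 60.3 kb and 51.0 kb from the nearest K27R region.

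Slc22a3 was the imprinted gene where the EZHIP peak exceeded the K27M peak. Its start site lay in a K27M peak of 22.0 kb (chr17:12684801-12706800) and in an EZHIP peak of 40.8 kb (chr17:12671001-12711800). K27M peaks covered 31.4% of the gene and EZHIP peaks 52.8%, and each peak at the start site touched 1 exon of 11. At the other 3 genes in both lists the K27M peak was the wider. Slc22a2, in the same K27R region, had no cover in either inhibitor list, and its start site was 50.5 kb from the nearest K27M peak and 52.5 kb from the nearest EZHIP peak.

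The Dlk1-Dio3 cluster differed between its ends. Dlk1 encodes a transmembrane ligand of the Notch family and is expressed from the paternal copy, as is Dio3, the deiodinase that inactivates thyroid hormone, while the noncoding RNA Meg3 is maternal. K27R regions covered 675 kb of the 928 kb window around the cluster, or 72.7%. At the Dlk1 end, a K27R region of 90.2 kb (chr12:110689401-110779600) began 1.6 kb before the Dlk1 start site and ended 0.4 kb past that of Meg3. Inhibitor peaks over this region came to a single K27M peak of 2.0 kb between the genes (chr12:110714801-110716800), with no CpG island. All 9 annotated transcript starts of Dlk1 lay in the K27R region and none in an inhibitor peak. For Meg3 it was 3 of 10, the other 7 lying downstream of the region's end.

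At the other end, Dio3 lay in a K27R region of 283 kb (chr12:111334601-111617200). Its start site was also in a K27M peak of 27 kb and in an EZHIP peak of 14.0 kb, each of which covered the whole single-exon gene and its CpG island of 2096 bp. The EZHIP peak lay inside the K27M peak, reaching 5.1 kb before the start site and 8.9 kb past it, against 11.7 and 15.3 kb. In all, 5 K27M peaks and 5 EZHIP peaks lay in this K27R region, over 19.9% and 12.0% of it.

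The Snrpn-Ube3a cluster, the mouse counterpart of the Prader-Willi and Angelman region, was covered more densely at the Ndn-Magel2-Mkrn3 end than in the rest. Ndn and Magel2, paternally expressed genes of the MAGE family, shared a K27R region of 61.6 kb (chr7:69490201-69551800). The Magel2 start site lay in a K27M peak of 3.60 kb, which covered 24.4% of the gene, while that of Ndn was 26.2 kb from the nearest K27M peak. EZHIP peaks were absent from the region, and the nearest was 46.1 kb from the Magel2 start site. Mkrn3, a paternally expressed makorin gene, lay just outside all 3 lists, with its start site 2.56, 3.36 and 2.96 kb from the nearest K27R, K27M and EZHIP interval.

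The rest of that cluster had a lower share covered. In the 172 kb from 50 kb before Ndn to the end of the window, K27R regions covered 91.0 kb (52.9%), K27M peaks 14.6 kb (8.49%) and EZHIP peaks 1.60 kb (0.931%). In the other 3009 kb of the window, K27R regions covered 82.8 kb (2.75%) and K27M peaks 8.60 kb (0.286%), and no EZHIP peak lay there. Snrpn, which encodes a spliceosomal protein, had 1 K27R region of 5.80 kb in its body, 3.68% of its length. The annotated 5′ end of Snrpn is an upstream one, 131 kb from the nearest K27R region, and 1 of its 2 transcript starts lay in that region. Ube3a, the ubiquitin ligase of Angelman syndrome, had no cover, and its start site was 52.5 kb from a K27R region.

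**Figure D4:**
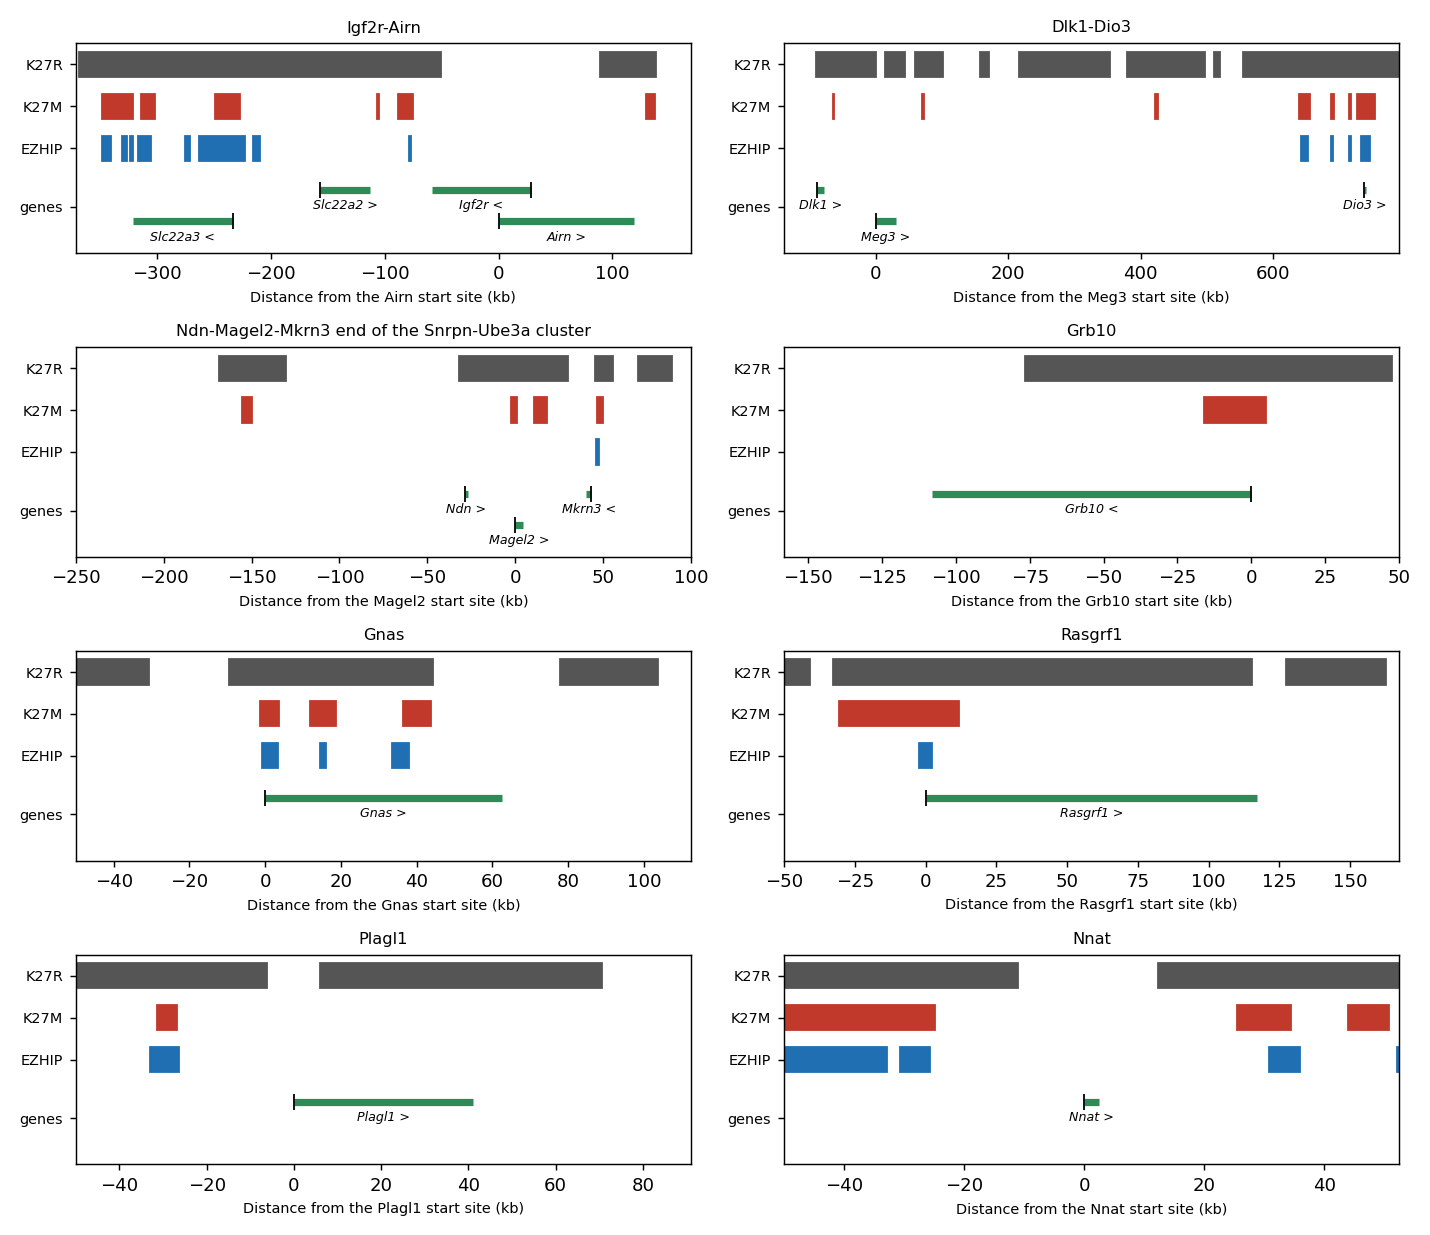
Maps of 8 imprinted loci plot K27R, K27M and EZHIP intervals as boxes in 3 rows, and the listed genes in green with a tick at the start site and an arrow for direction, against distance in kb from the start site of the gene named on the axis. Boxes are drawn up to the edge of each window. K27R regions of 90.2 and 283 kb at the ends of the Dlk1-Dio3 cluster contrast in cover, with a single 2.0 kb K27M peak in the first and 4 peaks of each inhibitor list in the part of the second that lies inside the window.

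Peg3, a paternally expressed zinc finger gene, had the narrowest of the 8 regions in K27R cells. The K27R region at its start site was 4.60 kb wide (chr7:6682001-6686600) and the K27M peak 3.20 kb, so that K27M covered 69.6% of the region, the largest share of the 8. EZHIP had no peak within 1884 kb of the Peg3 start site. Its neighbours Usp29 and Zim1 had no cover in any list, with start sites 227 and 32.8 kb from the nearest K27R region.

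Grb10, an adaptor that dampens insulin and growth factor signalling, uses a maternal promoter in most tissues and paternal promoters in neurons. Its K27R region of 124 kb (chr11:11862201-11986400) covered 70.7% of the gene, and a K27M peak of 21.0 kb covered 14.9%. Of 9 transcript starts, 6 lay in the K27R region and 5 in the K27M peak, which held 2 CpG islands. No EZHIP peak touched the gene, and the nearest was 288 kb from its start site.

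Gnas, whose alternative promoters make the maternal Nesp transcripts, the paternal extra-large form and the widely expressed G protein subunit, had peaks at several of those starts. A K27R region of 53.8 kb (chr2:174100401-174154200) held 10 of the 16 transcript starts. K27M peaks of 5.20, 6.80 and 7.40 kb also held 10 of them, among which were those at 174109821, 174123360 and 174153200. EZHIP peaks of 4.20, 1.60 and 4.40 kb held 3, all within the most upstream group at 174109821 to 174110859. The peaks covered 71.1% (K27R), 28.8% (K27M) and 15.0% (EZHIP) of the gene.

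Rasgrf1, a paternally expressed exchange factor for Ras, lay almost whole in a K27R region of 148 kb (chr9:89772001-89920000), which covered 98.5% of it. The K27M peak at its start site was 42.2 kb wide, the widest K27M peak at a listed start site, and reached 30.4 kb upstream and 11.8 kb downstream. The EZHIP peak there was 4.60 kb wide, reaching 2.4 kb and 2.2 kb. K27M thus covered 28.5% of the K27R region and EZHIP 3.11%, the widest gap between the inhibitor lists among the 4 genes in both.

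Plagl1 and Nnat were flanked by K27R regions that left their start sites clear. Plagl1, a paternally expressed zinc finger gene, had a K27R region of 64.8 kb that began 5.90 kb downstream of its start site, which lies in a CpG island, and covered 85.6% of the gene with 3 of its 12 transcript starts. No inhibitor peak touched the gene, although a K27M peak of 4.80 kb and an EZHIP peak of 6.60 kb lay over an island upstream, the nearer edge of each 26.7 and 26.3 kb away. Nnat, a small membrane protein gene, lay in a gap with K27R regions on both sides, the nearest 11 kb from its start site. K27M peaks covered 40.0% of the Nnat window and EZHIP peaks 27%, none of them over the gene.

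The other listed genes had no cover. Their distances from the start site to the nearest K27R region were 22.7 kb for Peg10, a retrotransposon-derived gene, and 22.8 kb for Sgce, a sarcoglycan gene that shares its CpG island. They were 32.6 kb for Impact, 70.2 kb for Zrsr1 and 202 kb for Mest. The windows of Mest and Zrsr1 held no interval of any list.

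Over gene bodies, 15 of the 36 genes had some K27R cover, 7 had K27M cover and 4 EZHIP cover, or 485, 77.5 and 59.9 kb in sum. The background shares with any cover were 34.7%, 11.4% and 10.9%. The 7 and the 4 were the genes whose start sites lay in the lists. Over the 25 genes outside the blank stretch these were 60% (background 34.9%), 28% (background 11.5%) and 16% (background 10.9%). The median cover over all 36 genes was 0% in each list, and over the 25 it was 9.09% for K27R and 0% for K27M and EZHIP. Among the 11 genes in K27R regions it was 100% for K27R, 10.1% for K27M and 0% for EZHIP, beside 100%, 0% and 0% for background genes in K27R regions.

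Over the 15 windows, each from the outermost listed genes plus 50 kb on either side, K27R regions covered 1850 kb in 33 intervals, K27M peaks 298 kb in 28 and EZHIP peaks 163 kb in 22. These fell in 11, 9 and 7 windows. Every K27M and EZHIP interval in the windows overlapped a K27R region, a share that was not computed over the whole lists. A CpG island lay in 11 of the 28 K27M intervals and 7 of the 22 EZHIP intervals, or 39.3% and 31.8%. Over the whole lists these shares were 53.2% and 36.4%.

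CpG islands were found within 500 bp of 24 of the 36 start sites (66.7%, background 49.5%) and of 18 of the 25 outside the blank stretch (72%, background 49.6%). Of the 11 genes in K27R regions, 8 had one (72.7%), against 40.8% of background genes in K27R regions. Of these 8, 6 were in K27M peaks (75.0%, background 57.1%) and 4 in EZHIP peaks (50%, background 49.6%). Of the 3 without, which were Slc22a2, Meg3 and Grb10, 1 was in a K27M peak (Grb10, whose nearest island is 575 bp away) and none in an EZHIP peak. The background shares without an island were 13.6% and 12.4%. Ndn and Dlk1 had an island and were in neither inhibitor list.

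The hexamer TGCCGC, the motif bound by the imprint-keeping factor ZFP57, was looked for on both strands (as TGCCGC or GCGGCA) in the stretch from 250 bases before to 50 after each start site. It was in 8 of the 36 promoters (22.2%, background 13.1%) and in 7 of the 25 outside the blank stretch (28%, background 13.1%). The stretches of Peg10 and Sgce, both counted, overlap. The hexamer holds a CpG, and no background matched for CpG islands was computed. Among the 11 genes in K27R regions, 2 held it, Slc22a2 and Meg3 (18.2%, beside 11.3% of background genes in K27R regions).

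By the textbook expressed allele, taken from any tissue, 17 genes outside the blank stretch are paternal, 6 maternal and 2 mixed by promoter or tissue. Which allele is expressed in these fibroblasts was not determined. Slc22a2 and Slc22a3, counted as maternal, are imprinted in placenta. Of the 17 paternal genes, 6 were in K27R regions, 4 in K27M peaks and 2 in EZHIP peaks. The background shares outside the blank stretch were 28.7%, 9.02% and 7.93%, where the paternal shares were 35.3%, 23.5% and 11.8%. For the 6 maternal genes the numbers were 3, 1 and 1, or shares of 50%, 16.7% and 16.7%. The maternal shares were thus above the paternal ones for K27R and EZHIP and below for K27M, on very few genes. Slc22a2 and Slc22a3 share a K27R region, as do Ndn and Magel2 among the paternal genes. For Grb10 and Gnas, the mixed ones, the numbers were 2, 2 and 1. The alleles themselves were not told apart in the lists.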

How the data were processed

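H3K27me3 ChIP-Seq intervals of the K27R, K27M and EZHIP lines (1 library each, groups from the titles) were analysed. The authors used bowtie1 to map reads to mm9 and to a spike-in genome, then called broad peaks with Mosaics-HMM under a maximum gap for joining and a minimum size. The submitters' processing notes name Bowtie 1.0.0 and deepTools. Which library served as background for the calls is not given in the sources used here. The lists deposited by the authors hold chromosome, start and end on a grid of 200 bp bins and no value, so the unit is a position, read counts and depth are unknown, and intervals were not comparable in height.

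Members and lists were chosen with earlier results of these data known. Genes came from GENCODE vM1 on NCBIM37. A start site was in a list when its base lay in an interval, and every gene with a start site or cover in a list was named. CpG islands were found in the genome sequence (17 per CG, -1 per other base, over 200 bp, at least 50% G+C, observed to expected CpG above 0.6), which gave 23678. The counting was tested on simulated intervals. Python 3.11.15 with numpy 2.4.6 and numba 0.67.0 was used. No test was run, since no group had a replicate. Alternatives were interval width, merging, start site definition, windows, background and island size. Those on the blank end of chromosome 7, on members with islands and on regions were chosen after seeing the data. The parental control and Eed deletion libraries were not analysed here.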

Additional observations from a re-analysis of the deposited data

How the results depend on the processing

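No paired analysis was possible because each group had 1 library, and no replicate could be left out. Of 114 alternative values, 104 stayed within 1.5 times the reported value. The 104 include all the background shares, which do not bear on the imprinted genes. They also include the start site counts without the blank end, which could not change. With intervals of at least 5000 bp only, Gnas and Rasgrf1 left the EZHIP list. The EZHIP count was then 2 for start sites, genes in K27R regions, gene bodies with cover and K27R regions with a peak. Start sites made 5.56% of the 36 (background 6.16%), and genes in K27R regions 20%, below a background of 22.0%. Peg3 left the K27R list (10, or 27.8% against 28.0%), and Peg3 and Magel2 the K27M list (5, or 13.9% against 7.44%). K27R regions with a K27M peak fell to 6, with the Peg3 region no longer among the regions counted. Shares of the 36 include the 11 genes of the blank end and were not computed without them at this width. Counted by cluster, where 1 start site in a peak was enough, 0 had a K27R start site and none in an inhibitor list. With only the genes that have an island, a restriction added after seeing the data, 2 were in neither inhibitor list. The window cover was 2824 kb for K27R with 200 kb flanks, and 165 kb for K27M and 101 kb for EZHIP without flanks. Islands of at least 500 bp left 5 genes in K27R regions with an island. Allowing 5000 bp around intervals added Mkrn3 to all 3 lists (12, 8 and 5 of 36 genes). The background shares rose to 36.4% for K27R, 11.3% for K27M and 11.4% for EZHIP. Any annotated transcript start added Plagl1 and Snrpn to the K27R list (13 of 36, background 29.9%). Merging intervals up to 10000 bp apart changed no start site count. With no read counts, what depth limits could not be measured.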

Other observations

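Outside the 36 genes, 50 further imprinted genes were listed from general knowledge, of which 44 were found in the annotation and 6 lay in the blank end of chromosome 7. Start sites of 14 of the 44 were in K27R regions (31.8%, background 28.5%), 5 in K27M peaks (11.4%, background 8.95%) and 6 in EZHIP peaks (13.6%, background 7.87%). These shares keep the genes of the blank end among the 44 and were not computed without them. Neighbours can share a region, as Nespas lay in the K27R region of Gnas. Of the 14, 4 were in both inhibitor lists, and 7 (50%) were in neither, against 65.0% of background genes in K27R regions. The interval at the Zdbf2 start site was 214 kb wide in the K27R list, 53.4 kb in the K27M list and 37.6 kb in the EZHIP list. Begain, near Dlk1, had 193, 11.8 and 4.60 kb. Calcr, the calcitonin receptor gene near Peg10, had 106, 24.8 and 8.60 kb, and Sfmbt2, a Polycomb group gene, 74.4, 13.2 and 10.4 kb. Kcnk9, a potassium channel gene, was in K27R (25.2 kb) and K27M (4.80 kb) only.

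Gatm, which encodes the first enzyme of creatine synthesis, and Cobl, an actin nucleator gene near Grb10, had their start sites in K27R and EZHIP intervals and in no K27M peak. Gatm had 245 kb in K27R and 6.60 kb in EZHIP, and Cobl 33.4 kb and 2.60 kb. None of the 36 genes was in EZHIP and not in K27M. The difference was not tested.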
